A study of Mus musculus with 9 samples.

Results

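The Meis, Pbx and Pknox genes encode cofactors of Hox proteins, and the genes described here were the rows with the symbols Meis1, Meis2, Meis3, Pbx2, Pbx3, Pbx4, Pknox1 and Pknox2, 8 of the 38197 symbols in the deposited tables. NSCs were derived from wild-type mouse ESCs of strain 129 grown as a monolayer. By the sample labels, every culture received retinoic acid (RA) and the Smo agonist SAG from 0 to 3 DDC (days in differentiation conditions). The paper's methods put the change to medium without them later. Prominin-1 positive cells were enriched magnetically at 4.5DDC, 5.5DDC or 6.5DDC, with 3 libraries per time point and 9 in all. The 3 groups thus differed in time and shared genotype, RA and SAG. The labels number the libraries of each time point 1 to 3 but do not say whether they came from separate cultures or what libraries of 1 number share, so p-values measure the spread between these libraries, which may in part be technical. The model is thus limited to 1 wild-type ESC background differentiated in a dish.

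The 3 subfamilies belong to the TALE class of homeodomain proteins, which carry additional amino acids in a loop of the homeodomain. Pbx proteins bind DNA together with Hox proteins and sharpen the choice of site, whereas Meis and Pknox (Prep) proteins bind Pbx, promote its entry into the nucleus and can form a ternary complex with Hox and Pbx. In the hindbrain and spinal cord these complexes act on enhancers of the Hox genes themselves, and Meis genes are known to respond to RA. The question of the time course was which transcripts change as NSCs pass from early to late neurogenesis, and the question asked here was whether the supply of Hox cofactors changed with them.

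The data showed cofactor transcripts of all 3 subfamilies in every library and no change of any of the 8 genes between time points that passed the test in the fit of all 9 libraries by time point alone. Meis1 and Meis2 instead differed between replicate numbers: in the libraries numbered 1, Meis2 stood at 46.3 to 53.9% and Meis1 at 58.6 to 63.3% of the mean of replicates 2 and 3 of the same time point. In the fit of replicates 2 and 3 alone, Meis2 was lower at 6.5DDC than at 4.5DDC by 0.40 on the log2 scale (SE 0.13, 6 libraries, edgeR quasi-likelihood test, adjusted p = 0.0445). That fit rests on 2 libraries per time point and leaves out the libraries in which Meis2 was lowest. Over all 9 libraries the difference was -0.43 (SE 0.36, edgeR adjusted p = 0.430). The shares of all genes called were 18.7% from 4.5DDC to 6.5DDC over 9 libraries, 31.3% in replicates 2 and 3 and 5.41% by replicate number, against 0, 1 and 2 of these 8 genes.

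The libraries held between 11066572 and 25506192 counts, and between 12851795 and 25506192 in replicate 1 against 11066572 and 16479971 in replicates 2 and 3. All 8 genes passed the filter on low counts, which kept 14742 genes, and each of their counts was whole. The lowest count of any of them was 48, for Pbx4 in replicate 1 of 6.5DDC, well above the 3 counts taken as the floor of detection. The labelled cell type had its markers: all 9 neural progenitor markers were tested, with means at the 3 time points of 82.1 to 87.6 FPKM for Sox2 and 154 to 160.2 FPKM for Nes, and of 8.29, 6.73 and 2.38 FPKM for Sox3 and 5.69, 3.29 and 1.14 FPKM for Hes5, while Pou5f1, a pluripotency factor, had means of 0 to 0.293 FPKM. In such bulk samples, fewer cells of a type and less RNA per cell cannot be told apart.

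All 8 genes are protein-coding in GENCODE M21 on GRCm38. Meis1 lies at chr11:18879817-19018985 and Meis2 at chr2:115863064-116065839, both on the minus strand, and Meis3 at chr7:16175090-16186504 on the plus strand. Pbx2 lies at chr17:34591266-34597400 (plus), Pbx3 at chr2:34171457-34373142 (minus) and Pbx4 at chr8:69832491-69872292 (plus), while Pknox1 lies at chr17:31564734-31607693 (plus) and Pknox2 at chr9:36890982-37147407 (minus). The reads were 50 bases long, and the use of strand in counting is not given in the sources used here. Of the exonic bases of Meis1, 18.3% also lay in exons of other genes, the opposite-strand gene Gm16140, which had 0 to 2 counts per library, and the same-strand gene Gm37818. Of the exonic bases of Pbx2, 6.24% lay in exons of Gpsm3 on the same strand, which had 6 to 39 counts. In Pknox1 this share was 2.24%, and in Meis2, Meis3, Pbx3, Pbx4 and Pknox2 it was 0. No stretch of 50 bases of Meis3, Pbx3, Pbx4 or Pknox2 recurred in transcripts of other genes, while 16.98% of those of Meis1, 4.93% of Pbx2, 1.5% of Pknox1 and 0.190% of Meis2 did, so the counts of Meis1 are the least certain in this respect.

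Meis1 and Meis2 were the members called by replicate number, so the sequence before their starts is shown, with that of Meis3 for comparison. Their profiles were not singled out as a pair, since Pknox1 was closer to Meis1 than Meis2 was. A shared control was not tested. The sequences come from RefSeq on GRCm38.p6, whose table of windows from 250 bases before to 50 bases after a start matched 5 of the 8 genes, and each is printed 5′ to 3′ on the strand of the gene for the longest part free of annotated exons. For Meis1 this is chr11:19018986-19019219 on the minus strand, with a CCAAT box in capitals, 54 bases before the start. For Meis2 it is chr2:116064722-116064801 on the minus strand, with a TATAAA match in capitals, 152 bases before the start, and it lies in an intron of longer Meis2 transcripts. For Meis3 it is chr7:16175185-16175274 on the plus strand.
Meis1: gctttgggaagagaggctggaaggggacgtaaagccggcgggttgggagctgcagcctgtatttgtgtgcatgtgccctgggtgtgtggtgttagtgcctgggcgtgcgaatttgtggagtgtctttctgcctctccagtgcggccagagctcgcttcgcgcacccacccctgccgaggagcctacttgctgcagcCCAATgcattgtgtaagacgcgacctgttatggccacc
Meis2: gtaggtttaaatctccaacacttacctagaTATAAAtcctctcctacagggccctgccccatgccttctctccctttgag
Meis3: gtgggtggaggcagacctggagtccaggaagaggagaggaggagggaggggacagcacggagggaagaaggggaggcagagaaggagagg

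The letters searched for, on both strands of the whole windows, were TGACAG (bound by Meis and Pknox proteins), TGATTGAT (Pbx with Hox), AGGTCA (an element of RA receptors), CCAAT and TATAAA, none of which contains another. CCAAT was in the windows of Meis1, Meis2 and Pbx4, and in 37.4% of all 32851 windows. TATAAA was in the window of Meis2 alone among the 5, and in 13.6% of all. TGACAG, TGATTGAT and AGGTCA were in none of the 5 windows, against 19.2%, 0.746% and 16.3% of all windows. A match is a description of letters, not of a bound site.

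Levels between genes were compared in FPKM, the deposited unit per transcript length. Meis2 had the highest mean over the 9 libraries (79.5 FPKM, from 31.3 to 154.7). Meis1 followed with a mean of 55.3 FPKM (34.2 to 70.2), then Pbx2 with 52.9 FPKM (30.9 to 72.9) and Meis3 with 47.2 FPKM (21.5 to 66.1). Pknox2 had a mean of 30.2 FPKM (24.9 to 37.3) and Pbx3 of 22.9 FPKM (17.1 to 26.8). Pknox1 with 8.13 FPKM (5.90 to 11.2) and Pbx4 with 7.64 FPKM (3.63 to 11.04) were the lowest. Of the 7 pairs of neighbours in this order, Pbx3 and Pknox1 were the 1 pair whose values did not overlap. The other 6 pairs of neighbours overlapped over the 9 libraries. Within libraries, the higher gene of the pair led in 8 of 9 for Meis2 over Meis1 and for Meis3 over Pknox2. It led in 7 for Pknox2 over Pbx3, in 6 for Pbx2 over Meis3 and Pknox1 over Pbx4, and in 5 for Meis1 over Pbx2. Genes further apart in the order were in part separate, since the highest value of Pbx3 (26.8 FPKM) was below the lowest of Meis2 (31.3 FPKM), Meis1 (34.2 FPKM) and Pbx2 (30.9 FPKM). Pbx2 took the highest level of the 8 in all 3 libraries of replicate 1, whereas Meis2 did so in all 6 libraries of replicates 2 and 3.

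**Figure D1:**
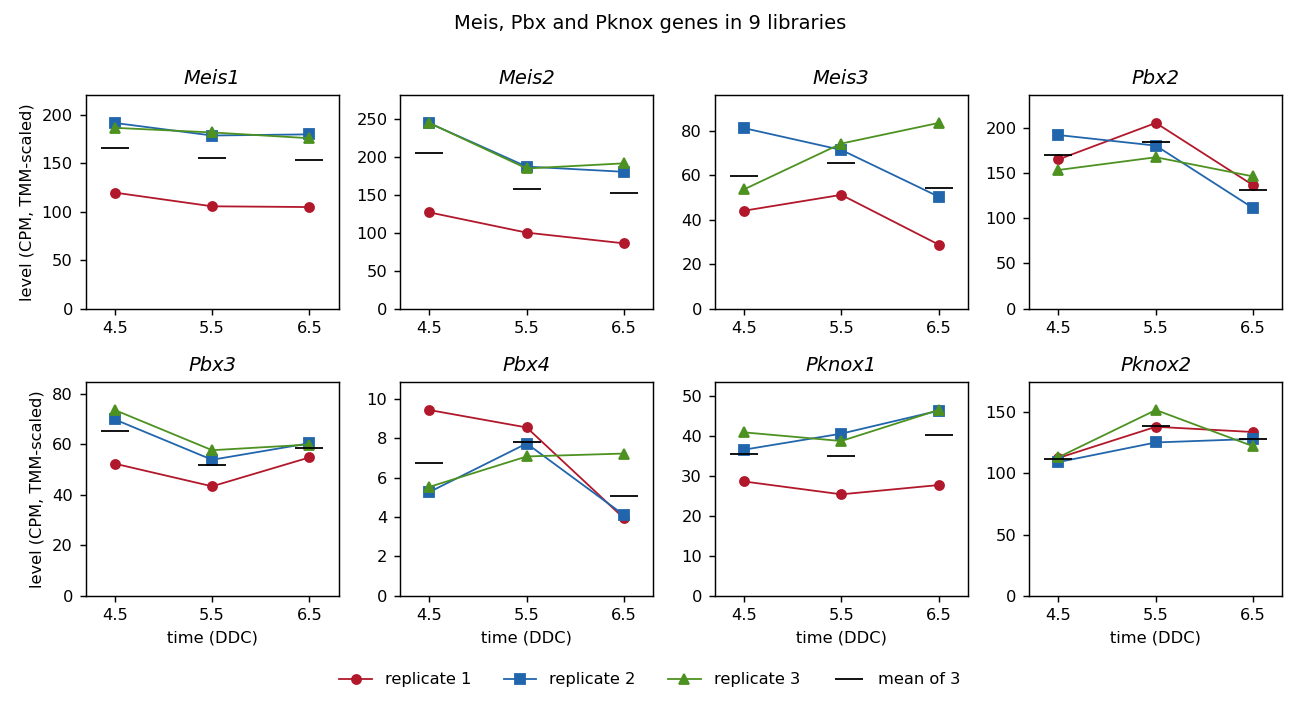
Level of each gene (CPM, counts relative to the library total, scaled by TMM) against time in DDC. Points are libraries, lines join libraries with the same replicate number and black dashes are means of 3. Replicate 1 is lowest at each time point for Meis1, Meis2, Meis3, Pbx3 and Pknox1, for which the share of all genes was not counted. It is below all 6 other libraries for Meis1, Meis2 and Pknox1 (Meis1 104.8 to 119.7 against 175.8 to 191.6 CPM), as for 5.13% of all genes tested. Pbx2 is lowest on average at 6.5DDC.

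Within a gene, levels were compared in CPM, counts relative to the library total, scaled between libraries by TMM (trimmed mean of M-values). Meis1, which binds Pbx proteins, had 119.7, 191.6 and 186.6 CPM in replicates 1, 2 and 3 at 4.5DDC. It had 105.6, 178.6 and 181.8 CPM at 5.5DDC and 104.8, 179.8 and 175.8 CPM at 6.5DDC. Its time points overlapped throughout, and its 3 lowest values were those of replicate 1. Meis2, its closest paralog, had 126.9, 244.6 and 244.9 CPM at 4.5DDC. It then had 100.2, 187.3 and 184.8 CPM at 5.5DDC and 86.1, 180.4 and 191.6 CPM at 6.5DDC. Here too replicate 1 was the lowest at each time point, and each replicate number had its highest value at 4.5DDC. Meis3 had 44.0, 81.2 and 53.6 CPM at 4.5DDC, 51.2, 71.4 and 74.2 CPM at 5.5DDC and 28.8, 50.3 and 83.5 CPM at 6.5DDC. Replicates 2 and 3 of Meis3 went in opposite directions over the time course, and the time points overlapped.

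Pbx2, which is expressed widely in the embryo, had 165.2, 192.2 and 153.5 CPM at 4.5DDC. It had 205.6, 180.5 and 167.6 CPM at 5.5DDC and 136.5, 111.3 and 146.4 CPM at 6.5DDC. The 3 values at 6.5DDC were below all 6 earlier ones. In FPKM, 24% of all genes tested did not overlap between 5.5DDC and 6.5DDC, and the share in CPM was not counted. Pbx3 had 52.3 to 73.6 CPM at 4.5DDC, 43.4 to 57.7 CPM at 5.5DDC and 54.8 to 60.4 CPM at 6.5DDC, with overlap between the time points and with replicate 1 lowest at each. Pbx4 was the least abundant gene by counts, with 5.27 to 9.44 CPM at 4.5DDC, 7.07 to 8.55 CPM at 5.5DDC and 3.93 to 7.22 CPM at 6.5DDC, where replicates 1 and 2 were low and replicate 3 was not.

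Pknox1 had 28.6, 36.6 and 40.9 CPM at 4.5DDC, 25.4, 40.6 and 38.8 CPM at 5.5DDC and 27.7, 46.4 and 46.6 CPM at 6.5DDC. Replicate 1 was again lowest at each time point. Pknox2, its paralog, had 112.7, 109.3 and 113.2 CPM at 4.5DDC. It had 138.1, 125.3 and 151.9 CPM at 5.5DDC and 133.8, 128.2 and 122.2 CPM at 6.5DDC. All 6 later values of Pknox2 were above the 3 at 4.5DDC, and replicate 1 was not set apart. Separate time points were common, since in FPKM 23.8% of all genes tested did not overlap between 4.5DDC and 5.5DDC. Between 4.5DDC and 6.5DDC it was 34.5%.

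Changes between time points were tested with edgeR's quasi-likelihood test, in 1 fit of all 9 libraries with Benjamini-Hochberg adjustment over 14742 genes. From 4.5DDC to 5.5DDC, 0 of the 8 genes passed, against 0.0746% of all genes. The nearest in this fit was Pknox2, 0.31 higher on the log2 scale at 5.5DDC (SE 0.12, adjusted p = 0.259), which was higher in all 3 replicate numbers and the 1 gene of the 8 with an unadjusted p under 0.05. From 5.5DDC to 6.5DDC, 0 of the 8 passed, against 0.224% of all genes. Pbx2 was nearest, with a log2 difference of -0.49 (SE 0.15, adjusted p = 0.170), lower in all 3 replicate numbers and again the 1 gene with an unadjusted p under 0.05. Under the replicate block, 1.44% and 1.32% of all genes passed in these intervals, and still 0 of the 8. In the first interval 3 of the 8 then had an unadjusted p under 0.05, and Meis2 was nearest (-0.38, SE 0.13, adjusted p = 0.185), followed by Pknox2 (0.31, adjusted p = 0.271) and Pbx3 (-0.33, adjusted p = 0.274). DESeq2, limma voom and limma on log2 FPKM also called 0 of the 8 in each interval.

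Between the first and the last time point, 4.5DDC and 6.5DDC, 0 of the 8 genes passed, while 18.7% of all genes did. The log2 difference of Pbx2 was -0.37 (SE 0.15, adjusted p = 0.108) and that of Meis2 was -0.43 (SE 0.36, adjusted p = 0.430). On the log2(FPKM + 0.1) scale the difference of Meis2 was larger, at -0.80, and did not pass either (limma, SE 0.42, adjusted p = 0.209). The 95% interval of the difference ran from -1.24 to 0.38 for Meis2 and from -0.74 to 0.51 for Meis1, so in this fit, which has no term for the replicate number, changes within these bounds could not be told from none. Those of Pknox2 (-0.06 to 0.45) and Pbx3 (-0.53 to 0.21) were narrower. Pbx2 was the 1 gene of the 8 with an unadjusted p under 0.05, and DESeq2, limma voom and limma on log2 FPKM called 0 of the 8. The median over the 8 genes was -0.15, and over all genes tested 0.0040.

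Because the libraries of replicate 1 stood apart, changes were also taken within replicate numbers. Meis2 was lower at 6.5DDC than at 4.5DDC by a log2 difference of -0.56 in replicate 1, -0.44 in replicate 2 and -0.35 in replicate 3. In the fit of the 6 libraries of replicates 2 and 3, the difference was -0.40 (SE 0.13, 95% interval from -0.69 to -0.11, edgeR adjusted p = 0.0445). Meis2 was the 1 gene of the 8 called in that fit, in which 31.3% of all genes were called. The fit holds 2 libraries per time point and leaves out those in which Meis2 was lowest. Its test of any difference between the time points did not pass for Meis2 (edgeR adjusted p = 0.0698). By interval, the differences of Meis2 in this fit were -0.40 (adjusted p = 0.131) and -0.0019 (adjusted p = 0.994), and the intervals did not differ by test (0.39, SE 0.22, adjusted p = 0.851). In FPKM the order was the other way, with log2 differences of -0.19 and -0.61 over 9 libraries on the log2(FPKM + 0.1) scale (limma, adjusted p = 0.882 and 0.459). Meis1 had a difference of -0.09 over the same span in these 6 libraries (SE 0.12, adjusted p = 0.609). Pbx4 had log2 differences of -1.24 in replicate 1, -0.35 in replicate 2 and 0.38 in replicate 3, and its fitted difference turned from -0.41 in 9 libraries to 0.07 in 6.

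**Figure D2:**
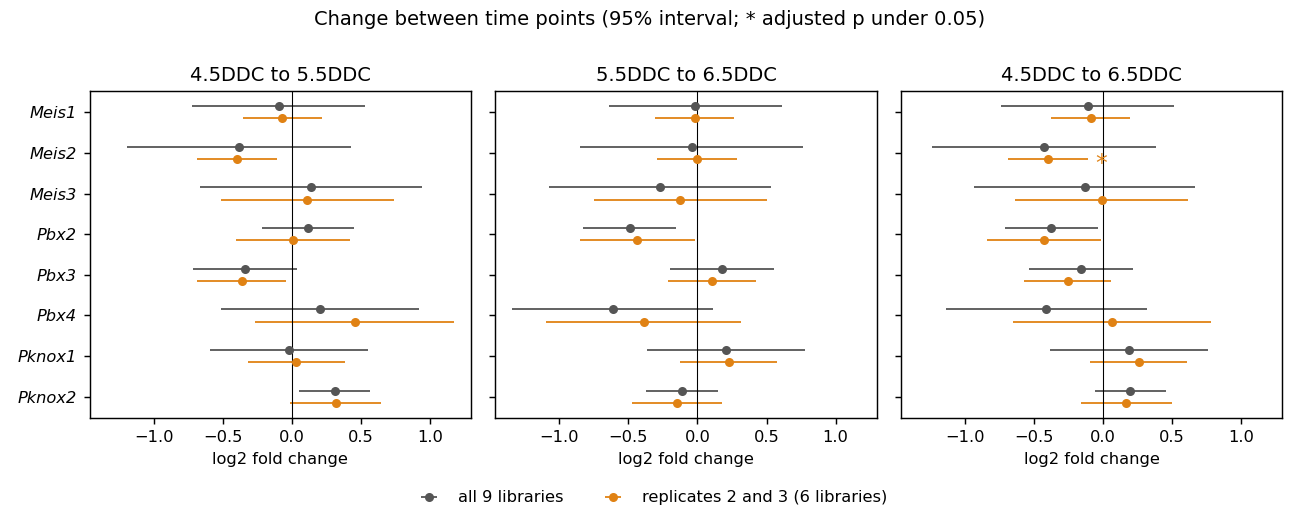
Log2 fold change of each gene between time points, with 95% intervals, from the fit of all 9 libraries (grey) and of the 6 libraries of replicates 2 and 3 (orange). The asterisk marks an adjusted p under 0.05, which was reached by Meis2 alone, from 4.5DDC to 6.5DDC in replicates 2 and 3, and the intervals of Meis1 and Meis2 are narrower without replicate 1.

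Any difference between the 3 time points passed the test for 0 of the 8 genes and for 9.63% of all genes, with adjusted p from 0.113 for Pbx2 to 0.940 for Meis1 (edgeR). Pbx2 was the 1 gene of the 8 with an unadjusted p under 0.05. The changes of the 2 intervals were also compared with each other, and here 0 of the 8 and 0% of all genes passed in edgeR, with 701 of all genes at an unadjusted p under 0.05. For Pbx2 the second change was 0.61 lower than the first (SE 0.26, unadjusted p = 0.0399, adjusted p = 0.760).

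In FPKM, 3 libraries against 3 cannot give an exact permutation p under 0.1. From 4.5DDC to 5.5DDC, Pknox2 was the 1 gene of the 8 whose libraries did not overlap between the time points (26.3 ± 1.21 against 34.3 ± 3.24 FPKM, SD, n = 3, two-sided exact permutation p = 0.1), and 23.8% of all genes tested did not overlap. From 4.5DDC to 6.5DDC this was again Pknox2 (30.0 ± 0.569 FPKM at 6.5DDC, SD, n = 3, exact permutation p = 0.1), against 34.5% of all genes. From 5.5DDC to 6.5DDC it was 3 of the 8, namely Pbx2 (63.0 ± 9.07 to 37.9 ± 7.67 FPKM), Pbx4 (10.1 ± 1.05 to 5.04 ± 2.45 FPKM) and Pknox2, against 24% of all genes. The ratio of deposited FPKM to CPM differed between libraries by 1.93-fold for Meis2 and 1.75-fold for Pbx4, and by 1.14-fold for Pknox2 and 1.12-fold for Meis1. Meis2 in replicate 2 of 4.5DDC had 154.7 FPKM but 244.6 CPM, and replicate 3 had 93.1 FPKM at 244.9 CPM.

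The spread of each gene over the 9 libraries was divided into parts for time point, replicate number and remainder, as shares of the sum of squares of log2 CPM. Replicate number took 97.0% for Meis1, 83.9% for Meis2, 86.9% for Pknox1 and 57.6% for Meis3. Time point took 74.7% for Pknox2 and 68.6% for Pbx2. Pbx3 was divided between time point (40.5%) and replicate number (49.8%), and Pbx4 had the largest remainder (48.4%). Over all genes tested the mean shares were 43.7% for time point and 22.0% for replicate number.

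**Figure D3:**
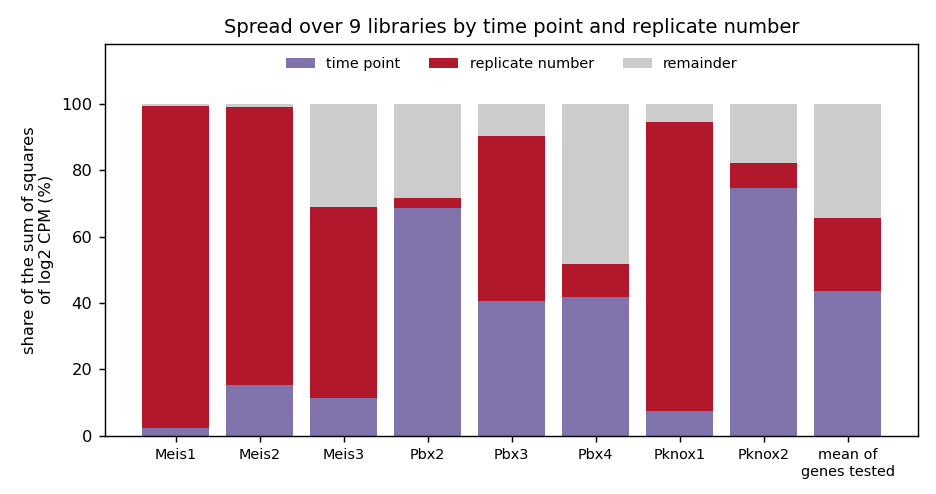
Share of the sum of squares of log2 CPM over 9 libraries that falls to time point, replicate number and remainder, in percent, for each gene and as a mean over the genes tested. The replicate number takes over 80% for Meis1, Meis2 and Pknox1, and time point takes the largest part for Pbx2 and Pknox2.

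The replicate number was tested with edgeR in a fit of time point and replicate number. Of the 8 genes, 2 passed, Meis2 (adjusted p = 0.00585) and Meis1 (adjusted p = 0.0153), against 5.41% of all genes. Both were lower in replicate 1, and 3.28% of all genes were called and lower in it. The log2 difference of replicate 1 from the mean of replicates 2 and 3 was -0.98 for Meis2 (SE 0.12) and -0.73 for Meis1 (SE 0.11), whereas replicates 2 and 3 differed by -0.02 (SE 0.13) and 0.02 (SE 0.13). The call of Meis2 held with each library left out in turn (adjusted p from 0.00194 to 0.0428). That of Meis1 did not hold without replicate 1 of 4.5DDC (adjusted p = 0.0912), without replicate 1 of 5.5DDC (adjusted p = 0.132), without replicate 2 of 5.5DDC (adjusted p = 0.0739) or without replicate 3 of 5.5DDC (adjusted p = 0.0672).

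Pknox1 had a difference of -0.61 (SE 0.14, adjusted p = 0.0817) and Meis3 of -0.76 (SE 0.22, adjusted p = 0.186), and neither passed. Meis3 passed when replicate 3 of 6.5DDC was left out (adjusted p = 0.0393). Pbx3 had a difference of -0.32 (SE 0.13, adjusted p = 0.469). Pbx2 (0.09), Pbx4 (0.21) and Pknox2 (0.04) had smaller differences, with 95% intervals from -0.23 to 0.41, -0.41 to 0.83 and -0.22 to 0.30. In CPM, all 3 libraries of replicate 1 were below all 6 others for 3 of the 8 genes, Meis1, Meis2 and Pknox1, and for 5.13% of all genes tested. Within the Meis subfamily, replicate 1 had the lowest value at each time point for all 3 genes, and the test was passed by Meis1 and Meis2. The share of all genes with replicate 1 lowest at each time point was not counted, so this trait has no baseline.

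**Figure D4:**
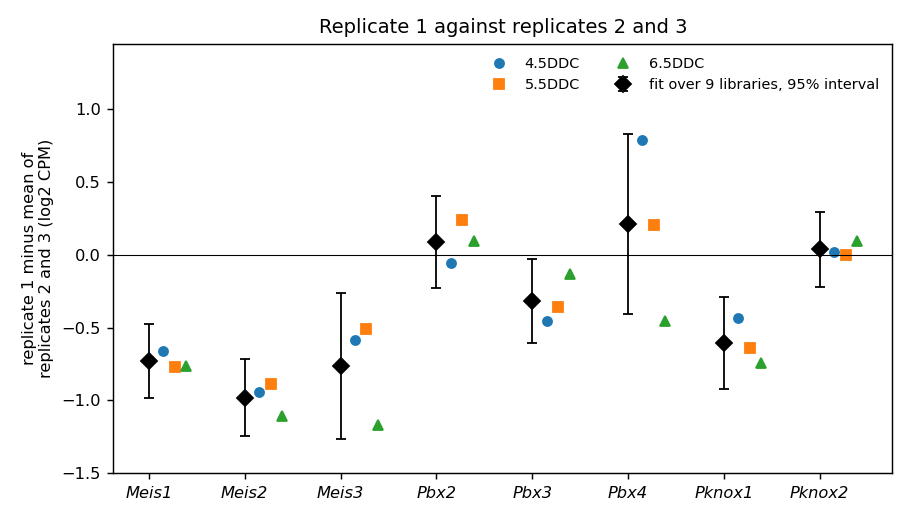
Replicate 1 minus the mean of replicates 2 and 3 on the log2 CPM scale, from the fit over 9 libraries with its 95% interval (black) and at each time point (coloured). The fitted values of Meis1, Meis2, Meis3 and Pknox1 lie between -0.98 and -0.61, and the points of Pbx4 lie on both sides of 0.

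The partners of these cofactors were examined with lists of genes. Of the 39 Hox genes listed, 20 were tested, and 14 of them were lower in replicate 1 (edgeR, adjusted p under 0.05). Of all genes, 3.28% were called and lower in it. The median over the 20 was -1.97, against 0.014 over all genes. Hoxd3 had a mean of 0.876 FPKM in replicate 1 and 23.5 FPKM in replicates 2 and 3 (log2 difference -4.85, adjusted p = 8.67e-05). Hoxa2, of the anterior end of the clusters, had 8.08 and 15.8 FPKM (-0.95, adjusted p = 0.0162). Between 4.5DDC and 6.5DDC, 0 of the 20 Hox genes passed in edgeR over all 9 libraries, against 18.7% of all genes. Of the 20, 2 had an unadjusted p under 0.05, and their median was 0.65 over the 20. In the 6 libraries of replicates 2 and 3, 10 of the 20 rose and 0 fell, with a median of 0.99, where 31.3% of all genes were called. Meis2, the 1 cofactor gene called in that fit, was lower. The summed Hox level was 45.6 to 57.7 FPKM in replicate 1 and 138.4 to 296.3 FPKM in the other 6 libraries. The 3 libraries of replicate 1 thus had the least Meis1 and Meis2 by CPM and the least summed Hox mRNA in FPKM. This is 1 difference between replicate numbers, for which 483 of 14742 genes were called lower in replicate 1. In FPKM the values of Meis2 overlapped, reaching 62.8 FPKM in replicate 1 and starting at 59.2 FPKM in replicates 2 and 3. A link between the Meis and Hox levels was not tested.

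Of 11 genes known for neural enhancers that Hox cofactors regulate, some of which are Hox genes themselves, 9 were tested, and 6 were lower in replicate 1, where 3.28% of all genes were called and lower. Of these 6, 5 are Hox genes already counted among the 14 above. Of the 4 tested genes that are not Hox genes, 1 passed, Aldh1a2, the enzyme that makes RA, which had 0.0971 FPKM in replicate 1 and 6.09 FPKM in replicates 2 and 3 (log2 difference -5.90, adjusted p = 0.00136). Egr2, at 2.47 FPKM in replicate 1 and 0.872 FPKM in the others, Pax6, at 1.62 and 2.97 FPKM, and Sox3, at 3.55 and 6.93 FPKM, did not pass (edgeR adjusted p from 0.579 to 1.0). Over 4.5DDC to 6.5DDC, 1 of the 9 passed, against 18.7% of all genes, namely Sox3, a transcription factor of neural progenitors, which fell by 1.80 on the log2 scale (adjusted p = 0.0330). Of 9 other TALE genes, Tgif, Irx and Mkx, 7 were tested. Tgif2, a transcriptional repressor, was the 1 that passed between 4.5DDC and 6.5DDC and fell by 0.66 on the log2 scale (edgeR adjusted p = 0.00972), so that 1 of the 7 passed, against the same 18.7%, and the median of the 7 was -0.66. In the replicate test 0 of these 7 passed in edgeR, with 0 at an unadjusted p under 0.05.

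Markers of other cell types differed between replicate numbers as well, in a test that called 483 of the 14742 genes lower and 315 higher in replicate 1. Of 10 neuron markers, 9 were tested and 6 were lower in replicate 1, with a summed level of 170.1 to 306.7 FPKM in replicate 1 and 290.5 to 726.2 FPKM in the others. Elavl4 and Nefl, which mark postmitotic neurons, were at 47.5 and 25.6 FPKM in replicate 1 and at 79.3 and 78.6 FPKM in the others. Of 6 endoderm markers, 4 were tested and 3 (Sox17, Gata4 and Gata6) were higher in replicate 1, with a summed level of 43.1 to 63.3 against 21.0 to 35.2 FPKM. Most of that sum was Foxa1, which floor plate also expresses, with 43.8 and 28.4 FPKM. Of 8 neural crest and mesenchyme markers, 6 were tested and 2 were lower in replicate 1, with sums of 7.06 to 17.9 and 7.95 to 52.5 FPKM, and Sox10 was listed at 0 in replicate 1 and had a mean of 0.0093 FPKM in the others. Of 6 pluripotent cell markers, 2 were tested and 0 passed in edgeR, with both at an unadjusted p under 0.05 and in opposite directions, Klf4 at 3.27 FPKM in replicate 1 and 1.76 FPKM in the others and Esrrb at 0.141 and 0.278 FPKM. The sums of the 6 were 4.06 to 6.49 against 2.44 to 3.50 FPKM. Of 9 neural progenitor markers, 1 (Nkx2-2) was lower in replicate 1, with sums of 533.2 to 1142 and 849.6 to 1406 FPKM, while Sox2 had 87.3 and 83.8 FPKM. The part of these cells in the replicate difference of the Meis genes was not tested.

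Some of these markers were also called between 4.5DDC and 6.5DDC over 9 libraries, where 18.7% of all genes were called. Of the 9 neuron markers tested 2 rose, Map2 by 1.65 (adjusted p = 0.00768) and Syt1 by 3.19 (adjusted p = 0.00133) on the log2 scale, and 0 fell. In replicates 2 and 3 alone, 5 of the 9 rose, and 31.3% of all genes were called, with 2415 of 14638 called and higher. Of the 9 neural progenitor markers, Prom1, the gene of the sorted antigen, rose by 1.19 (adjusted p = 0.00363), while Sox3 fell, as given above, and Nkx6-1, a factor of ventral progenitors, fell by 1.14 (adjusted p = 0.0220). Hes5, a target of Notch signalling, had a difference of -2.10 that did not pass (adjusted p = 0.0522). Of the 6 neural crest and mesenchyme markers tested, Twist1 rose by 0.74 (adjusted p = 0.0276). Of the 4 endoderm markers tested, 0 passed. In replicates 2 and 3, 2 of the 6 neural crest and mesenchyme markers and 1 of the 3 endoderm markers tested were higher. Of the 9 progenitor markers, 4 were called there, 2 higher and 2 lower. Under the replicate block, 4 of the 9 neuron, 4 of the 6 neural crest and mesenchyme and 3 of the 4 endoderm markers were higher. That block called 1913 of 14742 genes higher. The sums of the neuron markers were 177.6 to 391.4 FPKM at 4.5DDC and 306.7 to 726.2 FPKM at 6.5DDC. The part of these cells in the lower Meis2 of 6.5DDC was not tested.

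The genes with the profiles most like those of Meis1 and Meis2 were taken by the root mean square difference of centred log2 CPM over the 9 libraries, among 11995 genes whose mean was 2 FPKM or more. Meis1 and Meis2 were chosen for this after their values had been seen. Closest to Meis1 were Khdrbs3 (0.084), Ttl (0.090) and St6gal1 (0.091), with Pknox1 23rd (0.149) and Meis2 81st (0.194). Closest to Meis2 were Jag1 (0.155), Rassf2 (0.161) and Dock11 (0.172), with Meis1 10th (0.194). Pbx2, Pbx4 and Pknox2 ranked between 3980 and 8661 in both orders. All of these profiles share the same libraries.

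The subfamilies were then summed in FPKM in each library. The Meis sum was 205.6 ± 80.1, 188.4 ± 44.1 and 151.9 ± 61.4 FPKM at the successive time points (SD, n = 3). It ranged from 87.0 FPKM in replicate 1 of 6.5DDC to 289.7 FPKM in replicate 2 of 4.5DDC, and the time points overlapped (4.5DDC against 6.5DDC, exact permutation p = 0.5). The Pbx sum of the 3 genes was 88.9 ± 14.5, 95.2 ± 4.82 and 66.2 ± 11.1 FPKM. Its values at 5.5DDC (90.8 to 100.4 FPKM) did not overlap those at 6.5DDC (57.7 to 78.8 FPKM), a difference of 30.5% with an exact permutation p = 0.1, the smallest these numbers allow. The Pknox sum was 33.5 ± 1.09, 43.0 ± 4.83 and 38.3 ± 2.21 FPKM, with all 6 later values above those at 4.5DDC (exact permutation p = 0.1 for each). In CPM the Pbx sum at 6.5DDC was 20.1% below that at 5.5DDC and the Pknox sum at 5.5DDC was 17.8% above that at 4.5DDC, again without overlap.

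The make-up of the subfamilies was also compared. Meis2 made up 47.3 ± 6.06% of the Meis sum in FPKM at 4.5DDC and 36.8 ± 0.805% at 6.5DDC (SD, n = 3), lower in all 3 replicate numbers and without overlap (exact permutation p = 0.1). In CPM its share was 47.1 ± 3.41% and 41.9 ± 2.44%, also lower in all 3 replicate numbers, but with overlap (exact permutation p = 0.2). The interval without overlap depended on the unit: the share at 5.5DDC was 43.6 ± 1.96% in FPKM, above all values at 6.5DDC, and 41.3 ± 2.0% in CPM, below all values at 4.5DDC (exact permutation p = 0.1 for each). Pbx2 made up 66.0 ± 6.11% of the Pbx sum in FPKM at 5.5DDC and 57.1 ± 3.13% at 6.5DDC, while Pbx3 went from 23.4 ± 5.55% to 35.5 ± 4.37%, in each case without overlap and in all 3 replicate numbers (exact permutation p = 0.1). Pknox2 made up 75.7 to 84.9% of the Pknox sum, and its share was higher in replicate 1 (82.2 to 84.9%) than in every library of replicates 2 and 3 (75.7 to 77.8%).

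**Figure D5:**
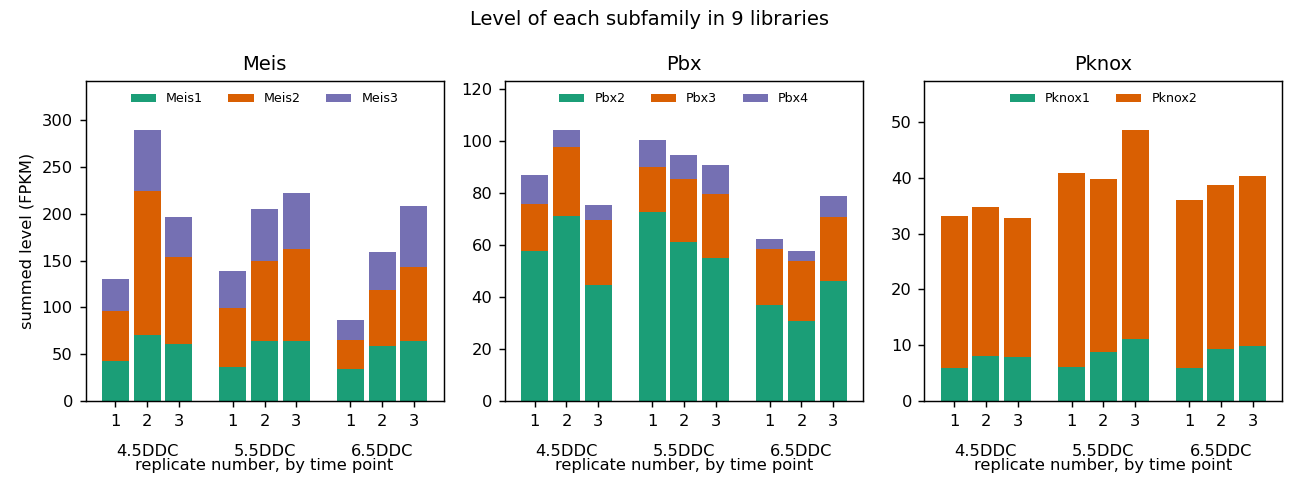
Summed FPKM of the Meis, Pbx and Pknox genes in each library, by replicate number within each time point, with colours for the genes. The Meis sum is lowest in replicate 1 at each time point, from 87.0 to 138.5 FPKM, and the Pbx sum at 6.5DDC lies below all values at 5.5DDC.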

How the data were processed

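RNA of 9 libraries was analysed. The authors mapped single-end reads to GRCm38 with TopHat 2.0.4 and counted them per gene with HTSeq 0.6.1, and the deposited estimated counts were whole for all but 98 symbols. Whole counts had been assumed in the choice of test, so the values were rounded first. FPKM, which the authors obtained from Cufflinks 2.1.1, served as levels. The deposited log2 values, made by the authors with limma voom without normalization, were checked against the counts.

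Genes were filtered with filterByExpr, scaled by TMM and fitted with edgeR 4.0.16 (R 4.3.3), with limma 3.58.1 and DESeq2 1.42.0 as alternatives and a threshold of 0.05 on the adjusted p. With all 9 libraries the residual degrees of freedom were 6 and the common dispersion 0.0733. Intervals are 95% and follow the fit. The floor of 3 counts was 0.118 to 0.271 CPM and covers counting error only. Tables used Python 3.11.15. The procedure was tested on simulated data, where it recovered few changes of 0.5 on the log2 scale and missed a large part of those of 1. The simulated time course held no difference between replicate numbers, unlike the data for Meis1 and Meis2. A gene that was not called may thus have changed by such amounts or more. Replicate numbers come from the sample labels. To check for pairing, deviations from the time point's mean were correlated between libraries of 1 number. In the first interval these correlations were 0.743 (replicate 1), 0.386 (replicate 2) and 0.452 (replicate 3). In the second they were 0.454, 0.367 and 0.197 in the same order. As all were above 0.1, a fit with the replicate number as a block is given beside the main fit for these intervals. The main fit had no term for the replicate number and so did not use this pairing. Libraries numbered 2 and 3 also correlated across numbers (0.390 for replicate 3 of 4.5DDC with replicate 2 of 5.5DDC, 0.405 for replicate 3 of 5.5DDC with replicate 2 of 6.5DDC), so the correlations set replicate 1 apart and do not separate numbers 2 and 3. The first and last time points gave 0.383, -0.040 and -0.215, so the numbers were not taken to pair them.

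The 8 genes and the lists were chosen with earlier results of these data known. From the lists, up to 4 of the largest rises and falls called over 4.5DDC to 6.5DDC are named. Genes named for the replicate difference were chosen after their values were seen. Other genes of these families are not analysed here.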

Additional observations from a re-analysis of the deposited data

How the results depend on the processing

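The log2 differences of the 8 genes, and the adjusted p of the tests over all time points and over replicate numbers, were recomputed under other scalings, filters and tests, a replicate block and with each library left out. Of 904 such values, 859 kept their side of the threshold and, where the value was a log2 difference, its direction, and 38 log2 differences changed direction, none of them called; the cause was not tested. No call of a member between time points came from another scaling, filter or tool.

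With the replicate block, Meis2 was called from 4.5DDC to 6.5DDC (-0.45, SE 0.13, adjusted p = 0.0353, 1 of the 8 genes, where 3418 of 14742 genes were called), although the numbers did not pair these time points, and also within replicates 2 and 3 (-0.40, 1 of the 8); the block changed no other call of the 8 genes. Over the same span the block called 6 of the 20 Hox genes, all higher, against 0 without it (1913 of 14742 genes were called and higher), and the lists counted in replicates 2 and 3 were added after seeing the data. The block raised the genes called from 11 to 212 in the first interval, from 33 to 195 in the second and from 1420 to 2180 for any time point. The fit of replicates 2 and 3 gave 485 and 729 in the intervals and 4587 against 2763 from the first to the last time point. Between 4.5DDC and 5.5DDC, DESeq2 called 495 genes, limma on log2(FPKM + 1) 7, no filter 25 and the 6 libraries compared 1. From 5.5DDC to 6.5DDC, DESeq2 called 671, library totals without TMM 55, limma on log2(FPKM + 0.1) 0 and on log2(FPKM + 1) 12, limma voom 21, no filter 78 and the 6 libraries compared 0. Without a filter, 1273 genes differed by replicate number, against 798.

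With each library left out, the genes called ranged from 1 to 28 (first interval), 0 to 196 (second), 1126 to 3132 (whole span, 1126 without replicate 2 of 6.5DDC and 1152 without replicate 2 of 4.5DDC), 323 to 1831 (any time point), 0 to 2 (difference of the intervals) and 206 to 1244 (replicate number), and the members called by replicate number from 1 to 3.

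The differences that changed direction had passed no test, and were not all small: that of Pbx4 from 4.5DDC to 6.5DDC was -0.41 over 9 libraries and that of Meis2 between the intervals 0.34. From 4.5DDC to 5.5DDC, Pbx4 was at -0.14 within replicate 1, and Pknox1 was at 0.013 with at least 1 CPM in 3 libraries, 0.013 without TMM and 0.0084 without a filter, at 0.23 and 0.21 on log2 FPKM with pseudocounts of 0.1 and 1 and at 0.033 within replicates 2 and 3. From 5.5DDC to 6.5DDC, Pknox1 was at -0.046 and -0.042 on log2 FPKM with the same pseudocounts. From 4.5DDC to 6.5DDC, Pbx3 was at 0.016 and 0.014 on log2 FPKM and 0.067 within replicate 1, Pbx4 at 0.065 within replicates 2 and 3 and Pknox1 at -0.046 within replicate 1. With 1 library left out, Meis1 ranged from -0.29 to 0.12, Meis3 from -0.041 to 0.42 and Pknox1 from -0.15 to 0.17 in the first interval. In the second, Meis1 ranged from -0.23 to 0.20, Meis2 from -0.28 to 0.24 and Meis3 from -0.72 to 0.029. Over the whole span, Meis1 ranged from -0.30 to 0.10 and Meis3 from -0.58 to 0.17. The difference of the intervals ranged from -0.35 to 0.34 for Meis1, -0.14 to 0.63 for Meis2 and -0.15 to 0.48 for Pknox1. On log2 FPKM with pseudocounts of 0.1 and 1, it was -0.42 and -0.41 for Meis2 and -0.28 and -0.25 for Pknox1. These values on log2 FPKM are not in the count of changed directions above. Replicate 1 minus replicates 2 and 3 ranged from -0.12 to 0.51 for Pbx4 and -0.00089 to 0.080 for Pknox2. The Meis2 share of the Meis sum changed from 5.5DDC to 6.5DDC by 0.62 percentage points in CPM, against -6.74 in FPKM.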
